A study of Mus musculus with 5 samples.

Results

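The medial ganglionic eminence (MGE) is the ventral forebrain region in which many cortical interneurons are born. What culture changes in normal MGE cells was described here from 2 of the 5 arrays of the series, chosen by their labels: 1 array of wild-type (WT) MGE tissue and 1 of WT primary MGE cultures. The tissue was the ventricular and subventricular zone of the rostral MGE, dissected at E15.5 (embryonic age in days) from WT embryos. The cultures were primary neuronal cultures made from the same zones of WT embryos of the same age. The descriptions call both groups WT, while the tissue sample's title gives its genotype only as +/, without the second allele. The other arrays of the series came from embryos mutant for Dlx1 and Dlx2 and did not enter the comparison. The number of embryos behind each array, the culture medium and the time in culture are not given in the sources used here.

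In the intact MGE, radial glia in the ventricular zone and dividing precursors in the subventricular zone keep their precursor state partly through Notch signalling between neighbouring cells, and newborn neurons leave to migrate to the cortex. Their patterning depends on homeodomain factors such as Dlx1, Dlx2 and Nkx2-1, and the LIM-homeodomain factor Lhx6 directs cells towards interneuron fates. Dissected tissue also holds blood vessels with their mural cells, blood and microglia. Dissociated cells in a dish lose blood flow and much of their cell contact, and adhere to a flat surface.

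With 1 array on each side there was no test, and no value below has a replicate error of its own. A gene was called higher or lower where the 2 signals differed by at least 2-fold. Signals are probe set intensities after quantile normalization of the 2 arrays to one distribution, which does not change the order of genes within an array. Values under a floor of 5.19 were set to it. A gene was described where its mean log2 signal exceeded 4.81, a signal of 28, which 11220 of 18193 named genes did. Signals of different probe sets are not compared with each other. Because whole tissue and whole cultures were measured, fewer cells of a type and less RNA per cell cannot be told apart. Differences are given as log2 of culture minus tissue.

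The only labelled group of the series with more than 1 array, mutant tissue, gave a measure of how far arrays of one label can differ. Processed in the same way, its 2 arrays differed by at least 2-fold in 133 of 11104 genes (1.2%), with an SD of 0.30 (log2). With genes divided into 3 equal classes by mean signal, the share was 3.54% in the dimmest class and 0% in the brightest. The labels do not say whether these arrays came from separate embryos, so this spread may be technical. It covers tissue alone, and the spread between cultures was not measured.

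Culture and tissue differed far more widely. Of the 11220 genes described, 1084 (9.66%) were at least 2-fold higher in culture and 724 (6.45%) at least 2-fold lower, while 9412 (83.9%) lay in between. These shares of all genes are the background for each count of list members below. The SD of the difference was 0.90. At 4-fold the counts were 316 higher and 108 lower, and at 8-fold 112 and 31, so the most extreme differences lay mainly on the culture side. Over all 18193 named genes, dim ones included, 13.5% were higher and 10.1% lower. By brightness, 22.3% of the dimmest, 15.7% of the middle and 10.3% of the brightest class were called either way. Of the called genes, 287 higher ones had a tissue signal under 28 and 151 lower ones a culture signal under it. Each of those genes passed the intensity filter through its other array alone and so had to differ. Among 723 called genes with more than 1 probe set above the filter, the probe sets shared one direction in 642 (88.8%). Of 130 genes named here with several such probe sets, 34 had another one on the other side of the 2-fold limit, and some of these cases are given with their gene. Over all 4999 genes with several such probe sets, called or not, the probe sets shared one direction in 65.5%.

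**Figure D1:**
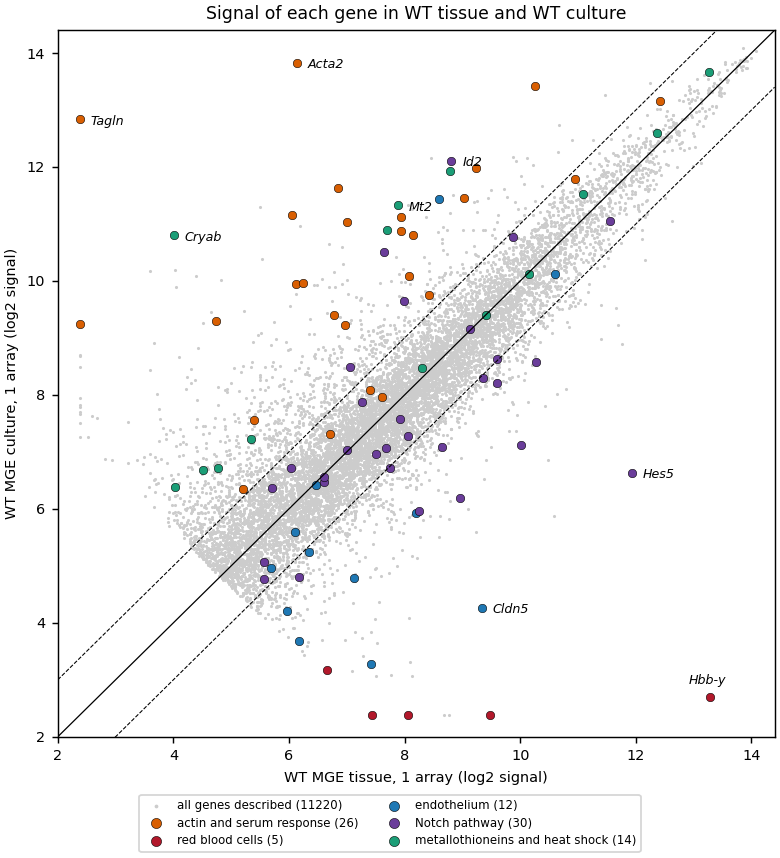
Signal of each described gene in the WT tissue array (x axis, log2 signal) against the WT culture array (y axis, log2 signal), with 5 gene lists in colour. The solid line marks equal signal and the dashed lines 2-fold. Actin and serum response genes lie above the upper dashed line in 21 of 26 cases, and the 5 red blood cell genes lie far below the lower one.

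The largest rise among genes measured above the floor in both arrays was in Acta2, the smooth muscle actin gene, from 70 to 14612, a 209-fold difference. Its other 2 probe sets were too dim to be described and read 5.19 in tissue and 53.2 in culture and 18.8 in tissue and 12.9 in culture. It was followed by Cryab, a small heat shock protein gene (16.1 to 1783, 111-fold), the hydroxysteroid dehydrogenase gene Akr1c14 (12.1 to 1157) and Lgals3, the galectin-3 gene (16.2 to 1179.8). The TEAD cofactor gene Vgll3 rose 57.5-fold, Ecrg4 55.6-fold, the IGF-binding protein gene Igfbp3 52.1-fold and Mme, which encodes the peptidase neprilysin, 37.9-fold. Nxph2, a neurexophilin gene, rose 36.6-fold, the calponin gene Cnn2 34.2-fold, the complement C5 gene Hc 32.8-fold and the elastic fibre gene Fbln5 30.4-fold. Genes at the floor in tissue have only a lower bound. Tagln, which encodes the actin-binding protein SM22, reached 7329.8 in culture, at least 1412-fold higher, and the annexin gene Anxa1 at least 117-fold higher. The bounds were 79.9-fold for Bmp6, a BMP ligand, 78.9-fold for Crhbp, which binds corticotropin-releasing hormone, and 69.5-fold for the TNF receptor family gene Tnfrsf12a. For the stress gene Gadd45b the bound of 47.3-fold holds for its brightest probe set, and the second read 28.2 in tissue and 45 in culture.

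The largest falls were of another kind. The embryonic globin gene Hbb-y dropped from 9986 to 6.5, close to the floor. Next were Hes5, a Notch target gene (3913 to 98.9, 39.6-fold), the endothelial tight junction gene Cldn5 (646 to 19.1, 33.8-fold) and Vtn, the vitronectin gene known from pericytes (277 to 8.38, 33.1-fold). Lower too were the retinoic acid-binding protein gene Crabp2 (27.7-fold), the LIM-homeodomain gene Lhx8 (26.1-fold), the growth factor gene Igf2 (25.7-fold), and Apod, the apolipoprotein D gene (21.7-fold). The endothelial adhesion gene Esam (17.4-fold), the amino acid transporter gene Slc38a5 (15.8-fold), the mural potassium channel gene Kcnj8 (15.2-fold) and Depp1 (14.8-fold) followed. Genes at the floor in culture have bounds in the same way: Hba-x was at least 137-fold lower, Hbb-b2 at least 79.1-fold and Hbb-bh1 at least 33.4-fold, all globin genes. The bound was 51.6-fold for the erythroid haem synthesis gene Alas2, 84.1-fold for the apelin receptor gene Aplnr and 32.5-fold for Abcc9, a subunit of the mural potassium channel.

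**Figure D2:**
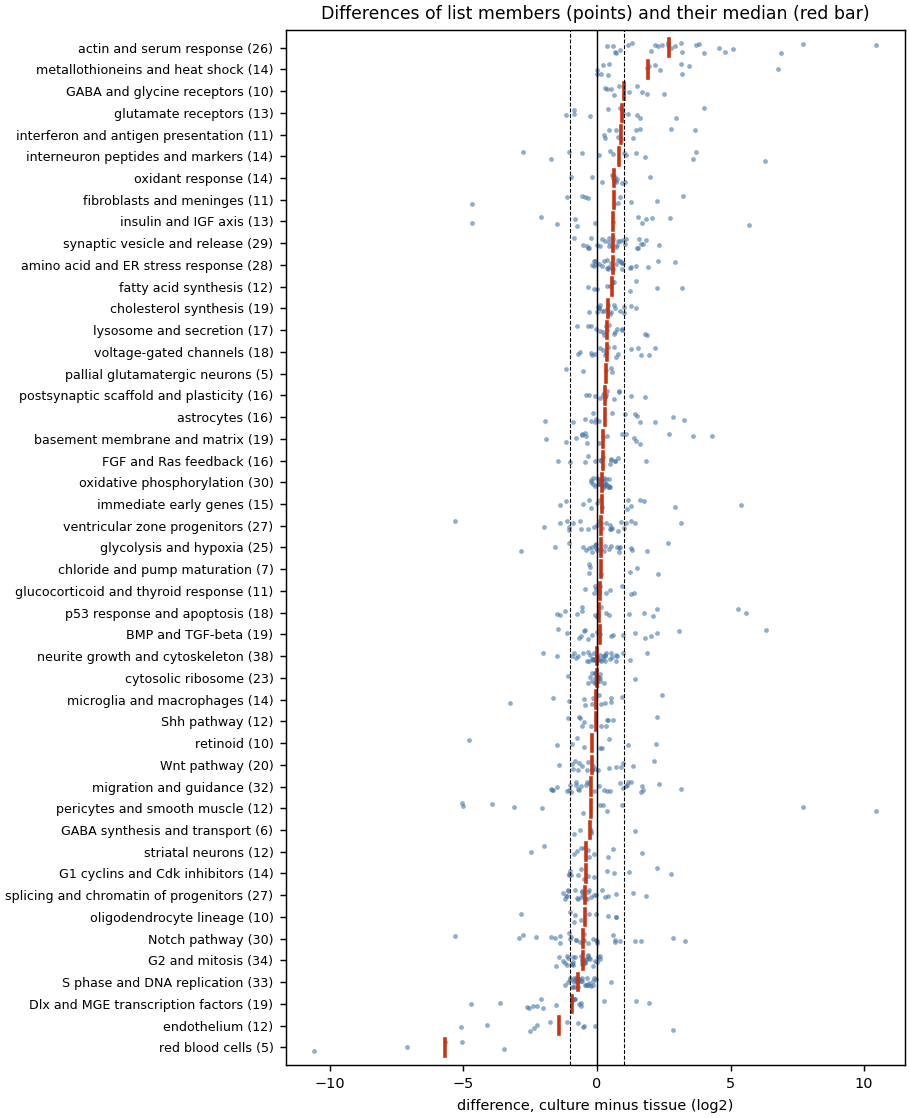
Log2 difference (culture minus tissue) of each described member (blue points) of the gene lists with 5 or more such members, and the list's median (red bar). The dashed lines mark 2-fold and the number after each name is the number of members described. The medians run from −5.69 for red blood cell genes to 2.71 for actin and serum response genes, and over all genes described the median is 0.00.

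Genes of the actin cytoskeleton that respond to serum response factor (SRF) and to the cofactor YAP, together with annexin, S100 and adhesion genes, had the highest median of all lists with 5 or more members described. Of 26 members described, 21 were at least 2-fold higher and 0 lower, against 9.66% and 6.45% of all genes. The median was 2.71, and 2.66 over all 28 members with a probe set. After Tagln, Acta2, Anxa1 and Cnn2 (66.8 to 2283) came the myosin light chain gene Myl9 (115 to 3163) and the tropomyosin genes Tpm2 (26.6 to 631) and Tpm1 (129 to 2091). The focal contact genes Actn1 (245 to 1866) and Vcl (124 to 602) rose as well. The YAP targets Ccn1 and Ccn2 rose 9.13-fold and 14.2-fold. Lgals1, the galectin-1 gene, rose from 1229 to 10946, and the annexin genes Anxa2 and Anxa5 by 2.76 and 2.66 on the log2 scale. The second probe set of Anxa2 above the filter read 55.7 in tissue and 67.8 in culture. Zyx (0.61), Srf (0.69), Cnn3 (0.72), Tpm4 (0.85) and the integrin gene Itgb1 (0.36) stayed under 2-fold, all with a positive difference. Ankrd1 and Actg2 were too dim to be described.

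SRF binds a sequence known as the CArG box. The 250 bases before the RefSeq transcription start were searched on both strands for the box, with a core of A and T bases only. Of 23 list genes with a promoter in the table, 5 held a match. Counted by promoter, the share was 20.8% (5 of 24), against 1.47% of all 32851 promoters. A match is a description of the sequence and not evidence of binding. The list was put together from knowledge of SRF targets, so the share is not independent of that choice. The windows of the 4 members that held a match and were at least 2-fold higher are shown 5′ to 3′ from RefSeq (GRCm38.p6), in lower case with the CArG box in capitals. The fifth gene with a match was Srf itself, with 0.69. The windows lie at chr10:79988350-79988599, + strand (Cnn2), chr2:156775214-156775463, + strand (Myl9), chr14:20929148-20929397, + strand (Vcl) and chr10:128493010-128493259, - strand (Myl6, which read 36.8 in tissue and 81.4 in culture).
Cnn2: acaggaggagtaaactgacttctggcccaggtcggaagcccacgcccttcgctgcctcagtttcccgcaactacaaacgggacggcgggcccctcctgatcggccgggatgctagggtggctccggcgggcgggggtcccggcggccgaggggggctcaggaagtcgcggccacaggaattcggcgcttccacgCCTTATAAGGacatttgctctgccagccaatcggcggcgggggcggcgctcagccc
Myl9: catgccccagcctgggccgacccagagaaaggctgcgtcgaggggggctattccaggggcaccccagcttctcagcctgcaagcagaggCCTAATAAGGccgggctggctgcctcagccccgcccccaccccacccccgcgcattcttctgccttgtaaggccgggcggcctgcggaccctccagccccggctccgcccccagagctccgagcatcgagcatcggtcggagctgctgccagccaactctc
Vcl: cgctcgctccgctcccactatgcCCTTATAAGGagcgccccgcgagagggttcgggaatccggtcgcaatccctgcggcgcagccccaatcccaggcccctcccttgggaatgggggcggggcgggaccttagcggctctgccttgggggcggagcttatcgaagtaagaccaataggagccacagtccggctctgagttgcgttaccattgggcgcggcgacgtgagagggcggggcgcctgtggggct
Myl6: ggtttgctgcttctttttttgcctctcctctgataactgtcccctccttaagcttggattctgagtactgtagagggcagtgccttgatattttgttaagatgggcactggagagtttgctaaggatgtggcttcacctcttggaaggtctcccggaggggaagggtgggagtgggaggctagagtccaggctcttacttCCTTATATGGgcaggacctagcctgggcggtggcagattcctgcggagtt
The first base of the box lies 50 bases before the start in Myl6, 56 in Cnn2, 161 in Myl9 and 227 in Vcl. No match was found in the windows of Acta2, Tpm1, Tpm2, Actn1 and Ccn1, which says only that the letters are not in these bases.

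Smooth muscle and fibroblast markers did not move as one group beside these genes. In the pericyte and smooth muscle list, Acta2 and Tagln rose while 5 of 12 described members fell: Abcc9, Kcnj8, Vtn, Rgs5 (547 to 63.8), a regulator of G protein signalling, and Higd1b (72.9 to 17.5). The pericyte receptor gene Pdgfrb read 134 in tissue and 158 in culture, and the muscle filament gene Des read 43 in tissue and 46 in culture. Myh11, the smooth muscle myosin heavy chain gene, lay at the floor in both arrays, and the calponin gene Cnn1 went from the floor to 122, too dim on average to be described. The list's summed signal went from 1718 to 22609.7, nearly all of it from Acta2 and Tagln. Among 11 described fibroblast and meningeal genes, 3 were higher and 2 lower (median 0.65). Over all 20 with a probe set, dim ones included, 8 were higher and 3 lower (median 0.72). The shares of all named genes were 13.5% and 10.1%. The collagen gene Col1a2 (44.4 to 210.2) and the matrix crosslinking enzyme gene Lox (12.8 to 119.8) rose, the collagen gene Col3a1 read 48 in tissue and 35.3 in culture, and Col1a1 went from 5.19, beside the floor, to 52.8 but was too dim to be described. The matrix proteoglycan genes Lum and Dcn, markers of fibroblasts, were too dim in both arrays. The summed signal of the fibroblast list was 1039.8 in tissue and 1214 in culture, and it includes the fall of Igf2 from 216 to 8.43. The part that such cells have in the rise of the actin genes was not tested.

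Matrix genes were different in both directions, with 7 of 19 described members higher and 2 lower. The matrix protease gene Adamts1 rose from 13.1 to 258, and the protease inhibitor genes Timp3 and Timp2 from 44.4 to 529 and from 285 to 1838. The laminin gene Lamc1 (66.4 to 184) and its receptor gene Itga6 (194 to 509) rose as well, Itga6 by less than 2-fold in its second probe set. The proteoglycan genes of the brain matrix Vcan (383 to 102) and Bcan (417 to 186) fell, and the vessel basement membrane genes Col4a1 (−0.79) and Col4a2 (−0.40) stayed within 2-fold.

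Blood genes and most endothelial genes were lower in culture, several of them at the floor. All 5 described red blood cell genes were lower, and the summed signal of the 8 with a probe set went from 11283 to 50.6. Of 12 described endothelial genes, 7 were lower and 1 higher (median −1.43, and −1.90 over all 20 with a probe set). Besides Cldn5 and Esam, the endoglin gene Eng fell from 72.1 to 12.8, the adrenomedullin receptor component Ramp2 from 140 to 27.7, the transporter gene Slco1c1 from 291 to 60.6 and the VEGF receptor gene Flt1 from 62.2 to 18.6. The other VEGF receptor gene, Kdr, read 88.7 in tissue and 84.9 in culture. The 1 member that rose was the lipid transporter gene Mfsd2a, from 386 to 2777. With Mfsd2a included, the summed signal of the endothelial list went from 3861.5 to 4335.1. The endothelial genes Pecam1, Tie1, Tek and Vwf were too dim to be described and all lay at the floor in culture.

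Microglial genes did not fall together. Of 14 described, 3 fell, 1 rose and 10 were within 2-fold, with a median of −0.03, which turned positive when dim genes were included. The purinergic receptor gene P2ry12, known from resting microglia, dropped from 125 to 13 and the growth factor receptor gene Csf1r from 215 to 68, while the lysosomal macrophage gene Cd68 rose from 14.3 to 76.6. The other probe set of Csf1r above the filter read 87.8 in tissue and 76.9 in culture, within 2-fold. Complement C1q genes changed little: C1qa read 128 in tissue and 156 in culture and C1qb 116 in tissue and 85.6 in culture. The signalling adaptor gene Tyrobp read 126 in tissue and 134 in culture.

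**Figure D3:**
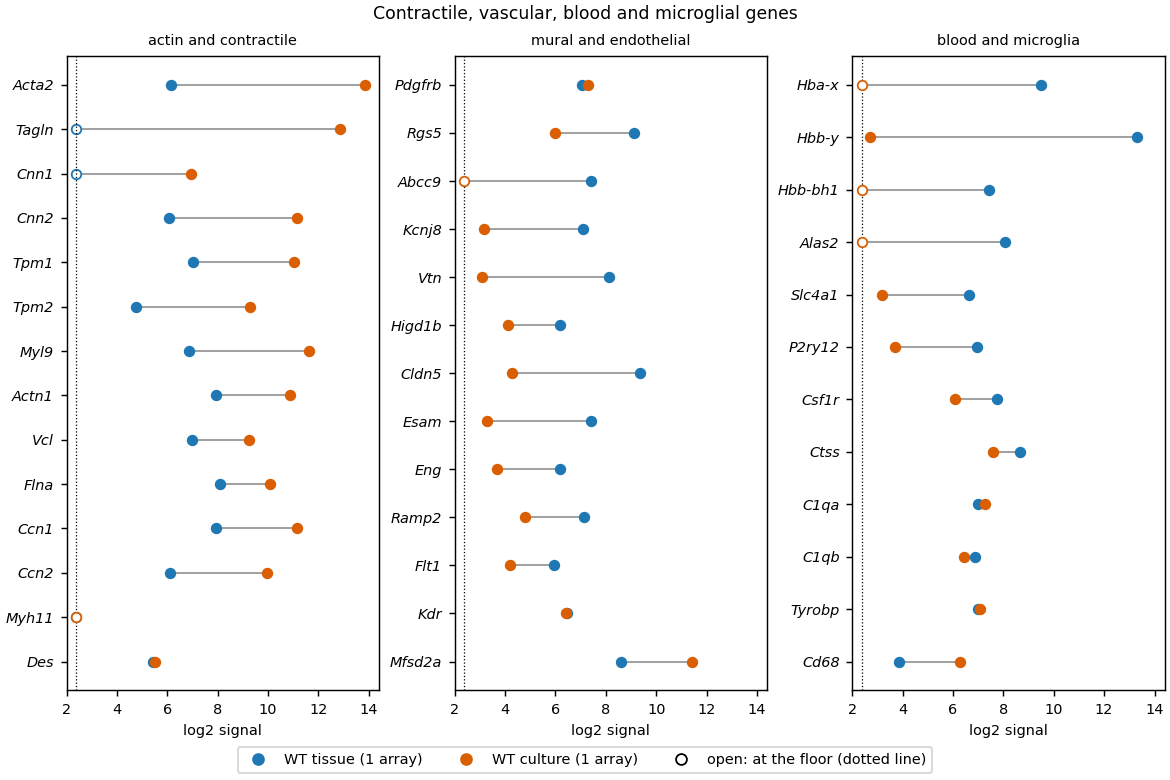
Log2 signal of single genes in the WT tissue array (blue) and the WT culture array (orange), 1 array each. Open circles lie at the floor, marked by the dotted line. Contractile genes such as Acta2 are higher in culture, most mural, endothelial and globin genes are lower, and C1qa, Tyrobp and Pdgfrb lie at nearly the same signal in both.

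More genes of Notch signalling fell than rose. In the Notch list, which also holds the Id genes, 10 of 30 described members fell and 4 rose, with a median of −0.52. Both delta-like ligand genes of the neurogenic wave fell, Dll1 from 304 to 62.3 and Dll3 from 496 to 72.9, as did the ligand gene Jag1 (398 to 135). Of the receptors, Notch1 fell from 654 to 315, and by less than 2-fold in its second probe set, while Notch2 rose from 133 to 359.7. The mediator Rbpj (776 to 297), the feedback inhibitor Nrarp (1241 to 382) and the fringe glycosyltransferase gene Mfng (1033 to 139) also fell. Among the effectors, Hes5 fell 39.6-fold and its second probe set read 713 in tissue and 52 in culture, whereas Hes1 read 129 in tissue and 131 in culture. Hes6, expressed as precursors differentiate, read 770.3 in tissue and 396 in culture, just under 2-fold, and 483 in tissue and 201 in culture by its second probe set, past it. The members that rose besides Notch2 were the HLH inhibitor genes Id2 (449.9 to 4436), Id3 (199 to 1449) and Id1 (254 to 803), while Id4 read 3003 in tissue and 2123 in culture.

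Hes5 had the largest fall of any gene measured above the floor after the globin gene Hbb-y, so its promoter is shown. RBPJ, the DNA-binding partner of Notch, recognises GTGGGAA, and this motif was searched on both strands of the same 250 bases. It occurred in 3 of 24 Notch list genes with a promoter in the table (Hes5, Hey2 and Lfng). Counted by promoter, the share was 10.3% (3 of 29), against 5.42% of all promoters. Hes5 held 2 matches, shown in capitals, the first of them read from the other strand, in the window at chr4:154960673-154960922, + strand (GRCm38.p6). Hey2 read 65.2 in tissue and 105 in culture and Lfng 97 in tissue and 88.8 in culture, both within 2-fold.
Hes5: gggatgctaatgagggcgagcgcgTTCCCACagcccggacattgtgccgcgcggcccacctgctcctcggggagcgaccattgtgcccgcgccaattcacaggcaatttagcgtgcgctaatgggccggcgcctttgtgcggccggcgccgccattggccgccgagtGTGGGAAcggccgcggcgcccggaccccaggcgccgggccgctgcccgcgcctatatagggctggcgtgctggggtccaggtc

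Progenitor genes divided. Of 27 described members of the ventricular zone list, 6 fell and 5 rose (median 0.15). Hes5 and Notch1 belong to this list too. The neural precursor factors Sox2 (5835 to 2824) and Sox1 (2055 to 789) fell, together with Tead2 (923 to 236) and, by its brightest probe set, the nuclear receptor gene Nr2e1 (303 to 138). Other factors on the list did not fall: Rfx4 rose from 139.5 to 283 and Sox3 differed by 0.48. Among radial glial genes, the fatty acid-binding protein gene Fabp7 read 8527 in tissue and 11884 in culture. The filament gene Vim read 6314 in tissue and 11679.7 in culture, with 2 other probe sets of Vim just past a 2-fold rise. Aldoc, a metabolic gene, was lower by less than 2-fold (−0.90). The glutamate transporter gene Slc1a3 rose from 179 to 474, and the membrane protein gene Pdpn from 879 to 1879. Slc1a3 rose by less than 2-fold in 3 other probe sets. The endothelin receptor gene Ednrb (−0.32), Prom1 (0.19) and Sox9 (−0.12) stayed within 2-fold. Insm1, a zinc finger factor of neurogenic precursors on no list here and chosen after its values were seen, fell from 3458 to 474 by its brightest probe set and read 1204 in tissue and 120.5 in culture by the second.

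Most genes of DNA replication and mitosis were lower in culture, by differing amounts. Among 33 DNA replication genes, 32 had a negative difference (median −0.70), but 4 passed 2-fold: Mcm7 (−1.02), Cdc6 (−1.21), Gins1 (−1.07) and Rfc4 (−1.0), of the replication licensing and fork machinery. Mcm7 and Rfc4 fell short of 2-fold under the deposited scaling and Gins1 under median centring. Of 34 mitosis genes 30 lay below 0 (median −0.54, range −1.53 to 0.13) and 7 (20.6%) passed 2-fold, the spindle gene Nusap1 (1799.7 to 621) and the kinesin gene Kif11 (648 to 242) among them. The mitotic kinase gene Cdk1 read 2316 in tissue and 2184 in culture, and the proliferation marker Mki67 693 in tissue and 369 in culture. G1 regulators went both ways. Ccnd1 (819 to 407) and Cdk4 (4578 to 2219), which drive entry into S phase, fell, and the inhibitor genes Cdkn1a (87.4 to 419) and Cdkn2b (23 to 159) rose with Ccnd3 (201 to 464). Ccnd1 lost 2-fold under the deposited scaling, the other 2 scalings and the averaging of probe sets, and Cdk4 under median centring. The chromatin genes Ezh2 (2343 to 981) and Actl6a (1595 to 746), of precursors, fell, and the splicing factor gene Rbfox3, a marker of mature neurons, rose from 82.5 to 292 by its brightest probe set while the second read 63.5 in tissue and 60.3 in culture.

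Transcription factors of the MGE were mostly lower in culture. Of 19 described, 9 fell, 2 rose and 16 had a negative difference (median −0.95). These 19 include the non-coding Dlx6os1 and Dlx1as but not Dlx1 and Dlx2, which formed a list of their own. Dlx1 read 3308 in tissue and 597 in culture (5.54-fold lower) and Dlx2 1085 in tissue and 335 in culture (3.24-fold lower), with 1 named probe set each. Their relatives followed, Dlx5 from 762 to 262, Dlx6 from 169 to 27.8 and the non-coding Dlx6os1 from 2682 to 506, while Dlx1as, on the strand opposite Dlx1, read 1286 in tissue and 665 in culture. Lhx8, which specifies basal forebrain cholinergic neurons, fell from 1536 to 58.9. The early ventral patterning genes Gsx2 (183 to 31.1) and Gsx1 (109 to 22.9), St18 (602 to 48.2) and Pou3f4 (502 to 119) fell as well. Genes of migrating interneurons mostly stayed within 2-fold by their brightest probe sets. Lhx6 read 1347 in tissue and 899 in culture by its brightest probe set, and its second probe set read 127 in tissue and 154 in culture, the opposite direction. Sox6 differed by −0.84 and Zeb2 by −0.60, both under 2-fold. Satb1 differed by −0.85, and its second probe set, at 598 in tissue and 263 in culture, passed 2-fold. The members that rose were Maf, a factor of MGE-derived interneurons (962 to 2658), whose probe sets above the filter shared the direction, and the basic HLH gene Npas1 (15.1 to 57.5). Prox1, a homeobox gene of interneurons and precursors, fell (59.1 to 14.8). Nkx2-1, which defines the MGE, was too dim to be described, at 40.9 in tissue and 17.2 in culture.

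Genes of GABA synthesis and transport mostly stayed within 2-fold by their brightest probe sets. Of 6 described, 1 rose and 0 fell. Gad1, one of the GABA-synthesizing enzymes, rose from 588 to 1573 (2.67-fold), and its second probe set read 115 in tissue and 238 in culture. Gad2, the other such enzyme, read 611 in tissue and 391 in culture, within 2-fold, but its second probe set read 193 in tissue and 69.7 in culture, a fall past 2-fold. The vesicular transporter gene Slc32a1 read 625 in tissue and 346 in culture, lower by less than 2-fold.

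Interneuron peptides and markers changed more, mostly upwards. Of 14 described, 7 rose and 3 fell (median 0.82, and 0.62 over all 21 with a probe set). The somatostatin gene Sst rose from 349 to 4529 (13-fold) and Reln, which encodes the extracellular protein reelin, from 45.6 to 546 (12-fold). Npy, the neuropeptide Y gene, read 1893 in tissue and 2684 in culture. Rises were also seen in Nxph1, a neurexophilin gene (637 to 1282), and the opioid peptide precursor genes Pnoc (83.9 to 180.1) and Penk (36.8 to 101). The members that fell were the tachykinin gene Tac1 (307 to 45.5), the serotonin receptor gene Htr3a of caudal interneurons (221 to 67.3) and the calretinin gene Calb2 (127 to 60.9). Calb1, which encodes calbindin, read 459.7 in tissue and 708 in culture. The parvalbumin gene Pvalb, a late marker, and Vip and Cck were too dim.

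**Figure D4:**
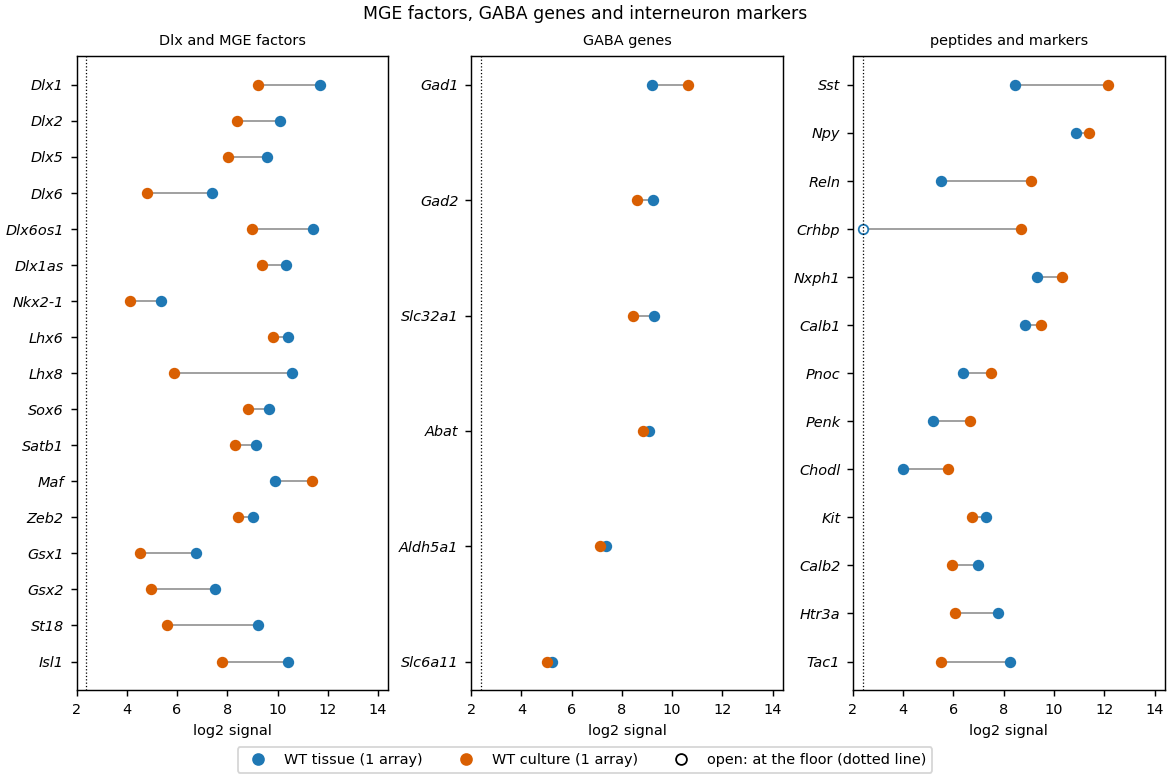
Log2 signal of MGE transcription factors, GABA genes and interneuron markers in the WT tissue array (blue) and the WT culture array (orange), 1 array each. Open circles lie at the floor (dotted line). Most transcription factors are lower in culture, with Maf as an exception, and Sst, Reln and Crhbp are higher.

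Markers of neighbouring lineages were checked in both arrays. Of 15 pallial glutamatergic genes with a probe set, 10 were too dim, among them the pallial factors Tbr1, Neurod1 and Eomes and the vesicular glutamate transporter genes Slc17a6 and Slc17a7, of which Slc17a6 lay at the floor in both. The patterning gene Emx2 fell from 103 to 46.6. Of 12 striatal genes, Ebf1 (276 to 69.4) and Zfp503 (426 to 78), factors of striatal neurons, fell, Gng7 rose (20.3 to 66.1), and the remaining 9 were within 2-fold, Bcl11b (−0.60) and, by its brightest probe set, Meis2 (−0.74) among them. In the cholinergic list only Isl1, a LIM-homeodomain gene, was bright enough, and it fell from 1368 to 222. In the oligodendrocyte list 2 of 10 described genes fell. Olig2 dropped from 661 to 92, whereas its relative Olig1 read 314 in tissue and 309 in culture and the precursor receptor gene Pdgfra 131 in tissue and 105 in culture.

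More neurotransmitter receptor genes rose than fell. All 10 described GABA and glycine receptor genes had a positive difference and 5 passed 2-fold (median 1.0, and 0.63 over all 13 with a probe set). They were the GABA receptor subunits Gabra5 (29.8 to 169), Gabra2 (32.9 to 119), Gabrb1 (25 to 81.2) and Gabra4 (23.1 to 53), and the glycine receptor subunit Glra2 (76.3 to 215). Of 13 glutamate receptor genes, 5 rose and 1 fell. The AMPA receptor subunit gene Gria1 rose from 61.8 to 486, and its second probe set read 46.1 in tissue and 594 in culture. Gria2 rose from 103 to 315 by its brightest probe set, but of its other probe sets one read 46.8 in tissue and 203 in culture and one 93.9 in tissue and 93.1 in culture. The metabotropic receptor gene Grm5 rose from 13.4 to 215 and the kainate receptor subunit gene Grik3 fell from 305 to 137. Many of the tissue signals were near or below the intensity filter, where 2-fold differences were also most frequent between the mutant tissue arrays.

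Presynaptic genes rose or stayed, and 0 fell. Of 29 described, 9 rose, with a median of 0.59. The calcium sensor gene Syt1 rose from 345 to 1155 and the SNARE gene Snap25 from 274 to 987, with the Rab3 effector gene Rph3a (46.4 to 233), the vesicle protein gene Syn2 (82.4 to 259) and the granin gene Chgb (102 to 292). Syp, the synaptophysin gene, read 105 in tissue and 130.2 in culture and Vamp2 236 in tissue and 253 in culture. In the postsynaptic list 2 of 16 rose (12.5%, near the 9.66% of all genes), the scaffold gene Dlgap1 (54.1 to 187) and the kinase gene Camk2a (47.8 to 117), while the scaffold genes Dlg4 (0.22) and Gphn (0.27) stayed within 2-fold. The other probe sets of Camk2a above the filter read 31 in tissue and 32.5 in culture and 24.5 in tissue and 33.2 in culture, and that of Dlgap1 66.3 in tissue and 122 in culture. Of 18 described channel genes 5 rose and 0 fell. They included the sodium channel gene Scn2a (34.4 to 155), the A-type potassium channel gene Kcnd2 (86.7 to 251) and the calcium channel gene Cacna1b (18.1 to 70). Cacng2, also on this list, rose from 34.7 to 109. Another probe set of Cacng2, under the filter, read 38.7 in tissue and lay at the floor in culture. The other probe sets of Kcnd2 and Cacna1b above the filter rose by less than 2-fold. The chloride exporter gene Slc12a5, which rises as neurons mature, went from 49.5 to 139, while the chloride importer gene Slc12a2 read 998 in tissue and 823 in culture. The sodium pump subunit gene Atp1b1 rose from 405 to 1963.

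Genes of the neuronal cytoskeleton and of neurite growth differed little. Of 38 described members of the neurite list, 2 rose and 2 fell (5.26% each way, against 9.66% and 6.45% of all genes). The median was 0.02, which turned negative under the deposited scaling. The microtubule-associated protein gene Mapt rose from 515 to 1912 and the tubulin gene Tubb2a from 2444 to 5700. The second probe set of Tubb2a read 142 in tissue and 165 in culture, and the gene lost 2-fold when probe sets were averaged. The neurofilament gene Nefm (85.5 to 30.2) and Tagln3 (935 to 229), a neuronal relative of Tagln, fell. General neuronal genes stayed within 2-fold: Dcx, the doublecortin gene of migrating neurons, read 2926 in tissue and 2624 in culture, Stmn2 2098 in tissue and 2472 in culture, Tubb3 4277 in tissue and 2379 in culture and the growth cone gene Gap43 503 in tissue and 836 in culture. Pak3, a kinase that acts on actin, read 1089 in tissue and 638 in culture.

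**Figure D5:**
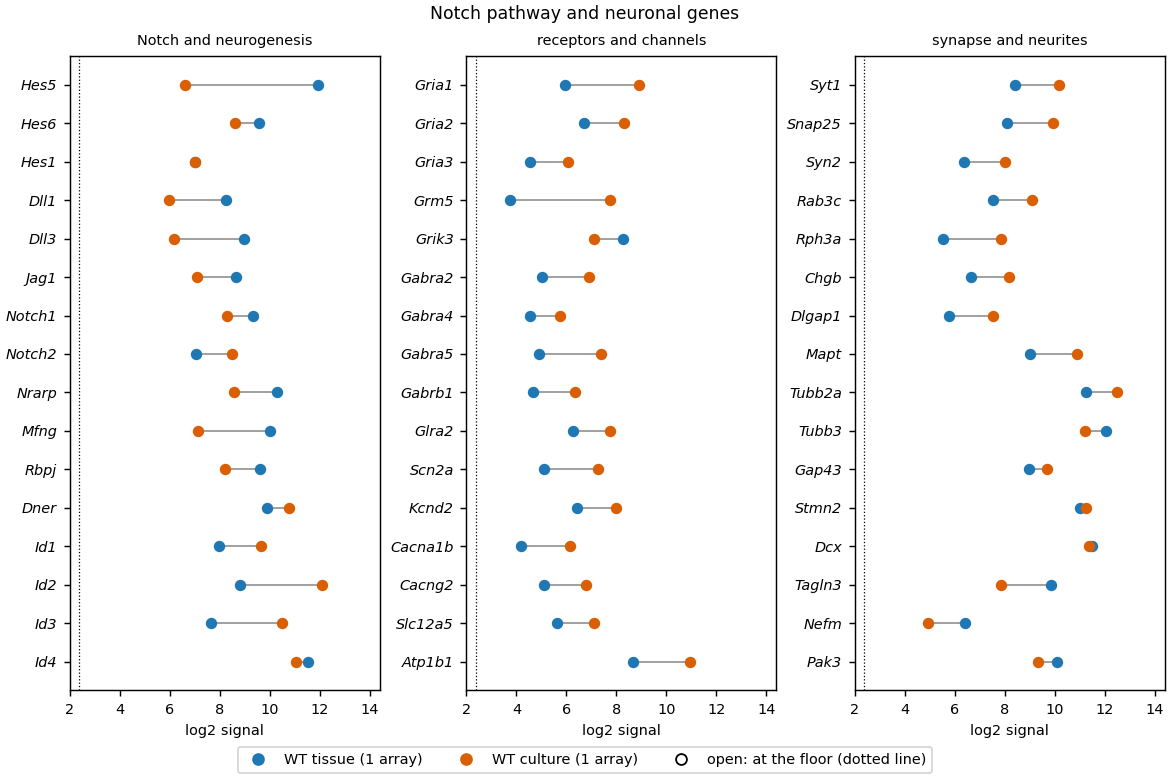
Log2 signal of Notch pathway genes, receptors and channels, and synaptic and neurite genes in the WT tissue array (blue) and the WT culture array (orange), 1 array each, with the floor as a dotted line. Hes5, Dll1, Dll3 and Mfng are lower in culture, receptor and channel genes other than Grik3 are higher, and Dcx and Stmn2 lie at nearly the same signal.

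Guidance and adhesion genes split into those that rose (9) and those that fell (7) among 32 described. The adhesion molecule gene Chl1 rose most, from 279 to 2444, followed by the semaphorin genes Sema3c (57.2 to 289) and Sema3a (56.8 to 189) and the repellent gene Slit2 (201 to 648). The second probe set of Slit2 above the filter rose by less than 2-fold. The chemokine receptor gene Cxcr4, which guides migrating interneurons, rose from 413 to 886, while Ackr3, the second receptor of the same chemokine, read 4677 in tissue and 2737 in culture. Eph receptors fell together: Epha4 from 1849 to 584, Epha3 from 844 to 265 and Ephb1 from 393 to 139.6. Each of the 5 probe sets of Epha4 was lower in culture. The netrin receptor gene Dcc fell from 399.5 to 199 while its ligand gene Ntn1 read 338 in tissue and 610.3 in culture.

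Several genes known from astrocytes, many of them shared with radial glia, were higher. Of 16 described, 7 rose and 1 fell, with a median of 0.31, or just below 0 when each gene's probe sets were averaged. Of these 16, 9 had a positive and 7 a negative difference, with a range from −1.95 to 3.26. The clusterin gene Clu rose from 268 to 2570.2, the gap junction gene Gja1 from 671 to 1913 and Sparc, a secreted matrix protein gene, from 1075 to 3332. The folate enzyme gene Aldh1l1 rose from 201 to 415 by its brightest probe set, although the mean of its probe sets did not rise, and the hyaluronan receptor gene Cd44 from 42.2 to 189. Gfap and S100b were too dim in both arrays, the latter at the floor in each, and the water channel gene Aqp4 read 46.2 in tissue and 68 in culture, or 23.3 in tissue and 69.8 in culture by its second probe set. The apolipoprotein gene Apoe read 278 in tissue and 275 in culture and the glutamine synthetase gene Glul 1362 in tissue and 994 in culture.

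Among secreted signals, BMP and TGF-beta genes differed most in the ligands. Of 19 described, 6 rose and 2 fell. Bmp6 went from the floor to 414 and Bmp4, another ligand, from 16.4 to 138. The pathway's induced inhibitors Smad6 (20.4 to 82.7) and Bambi (91 to 314) rose, as did the ligand gene Tgfb2 (31.1 to 147), and the receptor gene Tgfbr1 fell (1498 to 541). Smad7, another such inhibitor, read 84.4 in tissue and 90.6 in culture. The tissue signals of Bmp4, Bmp6 and Smad6 lay under 28. Id genes are known targets of BMP signalling, and its part in the rise of Id1, Id2 and Id3 was not tested. Shh, the hedgehog ligand made in the MGE mantle, rose from 238 to 1114. Its receptor and target gene Ptch1 read 1182 in tissue and 1539 in culture and the target gene Gli1 was too dim. In the FGF list the feedback phosphatase gene Dusp6 rose (85.9 to 308), the FGF receptor inhibitor gene Il17rd fell (69.5 to 25.3), and Etv5 (0.54 by its brightest probe set) and Spry2 (0.50) stayed within 2-fold. In the Wnt list the target gene Axin2 fell from 98.2 to 36.7, the transcription factor gene Tcf7l1 rose from 47.7 to 209, and 17 of 20 were within 2-fold. In the retinoid list Crabp2 and the receptor gene Rara (48.1 to 16.9) fell. The retinol dehydrogenase gene Rdh10 (60.7 to 279) and, by its brightest probe set, the receptor gene Rxra (84.8 to 193) rose.

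The insulin-like growth factor genes moved in opposite directions. Igf2 fell from 216 to 8.43 and Igf1 rose from 41 to 269.7. Of 13 described members of the axis 6 rose and 3 fell. The binding protein genes Igfbp3 (20.9 to 1090.1) and Igfbp2 (874 to 2838) and the receptor substrate gene Irs2 (24.3 to 87.3) rose, while the insulin receptor gene Insr fell (291 to 103). Igf2 is made mainly by vessels and meninges in the embryonic brain, and its fall stood beside those of the endothelial and mural genes. Their part in it was not tested.

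Metallothionein genes, whose products bind zinc and copper, rose by similar amounts. Mt1 went from 208 to 1897 (9.11-fold), Mt2 from 238 to 2569 (10.8-fold) and Mt3 from 439 to 3909.7 (8.9-fold). Of 14 described genes of the metallothionein and heat shock list, 8 rose and 0 fell. Besides Cryab these were the small heat shock genes Hspb1 (40.8 to 149) and Hspb8 (22.9 to 103), their partner Bag3 (16.2 to 83.2) and Hspa1b (27.4 to 105). The constitutive chaperone genes Hspa8 (0.41) and Hsph1 (0.01) and the zinc exporter gene Slc30a1 (0.17) stayed within 2-fold. Metal-responsive transcription uses a short element whose core is TGCACNC or TGCGCNC. In the same windows, on both strands, it occurred in 4 of 12 list genes with a promoter in the table (Hspd1, Mt1, Mt2 and Slc30a1). Counted by promoter, the share was 26.7% (4 of 15), against 21.4% of all promoters, so a single match is common. The windows of Mt1 (chr8:94178839-94179088, + strand) and Mt2 (chr8:94172368-94172617, + strand) are shown because these are the metallothionein genes with a match. They were thus chosen by the match itself. The core is in capitals on either strand, with 1 match in Mt1 and 3 in Mt2, none overlapping another. None was found in the window of Mt3.
Mt1: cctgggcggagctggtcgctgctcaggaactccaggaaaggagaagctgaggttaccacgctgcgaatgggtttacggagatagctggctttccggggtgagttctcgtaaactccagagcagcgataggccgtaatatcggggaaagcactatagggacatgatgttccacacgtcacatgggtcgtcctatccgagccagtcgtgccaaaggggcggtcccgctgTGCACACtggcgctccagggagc
Mt2: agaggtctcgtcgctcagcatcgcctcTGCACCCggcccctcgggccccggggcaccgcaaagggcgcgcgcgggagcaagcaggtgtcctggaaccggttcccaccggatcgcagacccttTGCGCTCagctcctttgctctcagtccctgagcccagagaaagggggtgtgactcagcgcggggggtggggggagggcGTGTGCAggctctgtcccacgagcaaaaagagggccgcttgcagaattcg

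Other stress and metabolic lists moved by smaller amounts, with more members higher than lower. Of 28 amino acid and ER stress genes 6 rose and 0 fell (median 0.59). The asparagine synthetase gene Asns rose from 380.2 to 1857 and the cationic amino acid transporter gene Slc7a3 from 23 to 176, while the ER stress genes Ddit3 (−0.10) and Herpud1 (−0.05) stayed near 0. Among Nrf2 targets the glutathione genes Gstm1 (258 to 1015) and Gclm (240 to 494) rose, and Hmox1 (0.63) and Nqo1 (0.20) stayed within 2-fold. Of 18 p53 and cell death genes 6 rose, including the p53 targets Cdkn1a, Ccng1 (398 to 1701) and Phlda3 (85.3 to 287) and the death receptor gene Fas (at least 39.2-fold), and 3 fell, while the p53 targets Mdm2 (−0.56) and Bbc3 (0.33) stayed within 2-fold. Of 12 fatty acid synthesis genes 4 rose and 0 fell, with Scd1, a fatty acid desaturase gene, from 103 to 947, and the lipogenic regulator Srebf1 from 313 to 854. Of 19 sterol synthesis genes 4 rose and 17 had a positive difference (median 0.40). Of 25 glycolysis and hypoxia genes 4 rose and 3 fell. The oxygen sensor gene Egln3 rose (57.7 to 365), and the hypoxia-induced Ankrd37 (212 to 29.4) and Ddit4 (1224 to 409.8) and the glucose transporter gene Slc2a1 (1424 to 688), also an endothelial gene, fell. The hypoxia target Vegfa read 193 in tissue and 187 in culture.

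Immediate early genes went both ways. Of 15 described, 7 rose and 2 fell. The orphan receptor gene Nr4a3 went from the floor to 219.6, although its other 2 probe sets were too dim, Fosl2 from 18.6 to 141 and Fos from 24.8 to 83. Btg2 fell from 446 to 169, and the activity-regulated genes Arc and Npas4 lay at the floor in both arrays. All 11 described interferon and antigen presentation genes had a positive difference and 5 passed 2-fold, with Ifitm3 from 121 to 1549, the class I gene H2-D1 from 45.3 to 308 and its partner B2m from 439.9 to 1206.

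Basic cell machinery was nearly the same in both arrays. Of 30 described respiratory chain genes 0 rose and 0 fell, with differences between −0.23 and 0.50. Of 23 ribosomal protein genes 21 were within 2-fold, with a median of 0.00. The exceptions were Rps27 (1.44) and Rps6 (−1.07). Sex-linked genes differed: Xist, from the inactive X chromosome of females, read 633 in tissue and 322 in culture by its brightest probe set and 533 in tissue and 190.2 in culture by the next, past 2-fold. The Y-linked Eif2s3y read 34.7 in tissue and 142 in culture, while the Y-linked Kdm5d (−0.43) and Uty (−0.27) were within 2-fold. The share of male and female embryos in each sample is not given by the labels, and its part in other differences was not tested.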

How the data were processed

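The authors deposited 1 linear intensity value per probe set for each of 5 Affymetrix mouse arrays (45101 probe sets). The values show that each array was scaled to the same 2% trimmed mean, and the sources used here do not name the software. The WT tissue and WT culture arrays had deposited medians of 29.8 and 26.2, a log2 difference of −0.18. They were quantile normalized together, floored at their pooled 20th percentile, and log2 taken (Python 3.11.15, numpy 2.4.6, pandas 2.3.3). Gene symbols came from GEO's table for the platform: 34945 had 1 symbol, 932 several and 9224 none or control status. Of those with 1 symbol, 34741 matched RefSeq by Entrez identifier. The probe set with the highest mean stood for each of 18193 genes, and genes with a mean above the pooled median were described.

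No test was made. The 52 lists hold 1114 genes, 1018 with a named probe set and 826 described. The comparison, lists and rules were chosen with earlier results of these data known. Named genes were the 12 largest rises and falls above the floor whose probe sets above the filter share a direction, the 6 largest each way with one array at the floor, and list members chosen by size or as defining members. The steps were tested on simulated data with 200 changed genes, and all 50 genes in each of 4 sets were recovered in the right direction. These genes were all bright in tissue and were shifted by 2 or 3 on the log2 scale, up or down. Recovery of dim genes, or of differences near 2-fold, was not tested. Alternatives changed the scaling, floor, filter, probe set rule and fold. The number of arrays limits the precision.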

Additional observations from a re-analysis of the deposited data

How the results depend on the processing

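No replicate could be left out, since each side has 1 array. No paired analysis was possible because each group compared holds 1 array. Against 1084 genes higher and 724 lower, testing dim genes too gave 2459 and 1843 of 18193 genes. A filter at the 75th percentile gave 473 and 362 of 6762. A limit of 1.5-fold gave 2189 and 1938, and a limit of 4-fold 316 and 108. Other settings kept both counts within 1.5 times: the deposited scaling gave 1017 and 826, quantile normalization of all 5 arrays 1094 and 727, and averaging a gene's probe sets 825 and 617. Of 218 named genes past 2-fold, 194 stayed past it in the same direction under every one of the 8 settings of scaling, floor, filter and probe set that gave them a value. Averaging probe sets took 17 below 2-fold and reversed 1, Aldh1l1 (−0.06), through a dim probe set. Gadd45b lost 2-fold under the deposited scaling, median centring and a lower floor, where a second probe set stood for it. No list median past 2-fold changed sign, while medians nearer 0 did so in the neurite, astrocyte, microglia, mural, matrix, BMP, Shh, retinoid, pallial and chloride lists under at least 1 setting. Signals near the floor limit the rest: a fold from them is a bound or depends on it.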

Other observations

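A few members of other gene lists differed. Foxj1, the factor of ciliated ependymal cells, rose from 23.5 to 175, and the folate receptor gene Folr1 of choroid plexus from 28.6 to 62.4, while Otx2, a factor of choroid plexus, read 149 in tissue and 215 in culture. Of 11 genes known to respond to glucocorticoid or thyroid hormone, 2 rose (18.2%, against 9.66% of all genes). They were Klf9 (55.7 to 147) and the glucocorticoid receptor gene Nr3c1 (64.8 to 159). The second probe set of Klf9 above the filter rose by less than 2-fold. The steroid-induced Fkbp5 (−0.08) and Tsc22d3 (−0.45) stayed within 2-fold. Of 17 lysosomal genes 2 rose, the protease gene Ctsl (846 to 3130.5) and the protease inhibitor gene Cst3 (2844 to 9907), and 0 fell. The share that rose, 11.8%, is close to the 9.66% of all genes, and Ctsl lost 2-fold when probe sets were averaged.

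Probe sets without a single gene symbol, those with none or with several, leaned the other way from named ones. Of 2411 above the intensity filter, 153 (6.35%) were at least 2-fold higher in culture and 387 (16.1%) at least 2-fold lower. Of 19473 named probe sets, 9.26% were higher and 7.27% lower. The cause was not tested.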
